A study of Zea mays with 54 samples.

Results

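Bx1 to Bx8 are 8 genes of the benzoxazinoid pathway, and they are described here among the 46430 features counted in roots of maize (Zea mays). They were chosen by name through their B73 v4 gene identifiers, and no measured value entered that rule. Earlier results of these data were known when the list was made. Bx1 is Zm00001d048709, Bx2 is Zm00001d048710, Bx3 is Zm00001d048702, Bx4 is Zm00001d048703, Bx5 is Zm00001d048705, Bx6 is Zm00001d048793, Bx7 is Zm00001d049179 and Bx8 is Zm00001d048634. These pairings were taken as listed and could not be checked, which matters most for Bx6 and Bx8, as given below. All 8 were present in both deposited count tables, and 7 of them, all but Bx6, had enough reads for a test in at least 1 genotype.

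RNA was sequenced from roots of 9 genotypes at low and at high phosphate (P) supply, which makes 18 groups of 3 replicates, or 54 libraries. EP1, F2, F160, F142, SF1 and SM1 stand in the first count table. The second holds P024, F7 and P415. Each genotype was grown at low P and at high P, and the labels name no introduced allele in any of them. The P concentrations, the age of the plants and the number of plants in a library are stated nowhere in the labels, so each p-value measures only how far these libraries spread, and that spread may be technical. The study asked how root gene expression differs between the P levels within each genotype.

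Benzoxazinoids are defence compounds of grasses that maize seedlings store as glucosides and also release from their roots, where they act against insects, fungi and other plants and bind metals. Bx1 diverts indole-3-glycerol phosphate from tryptophan synthesis by releasing free indole. Bx2, Bx3, Bx4 and Bx5 are cytochrome P450 monooxygenases that oxidise indole step by step to DIBOA, Bx8 is a glucosyltransferase that makes the stored glucoside, and the dioxygenase Bx6 and the O-methyltransferase Bx7 turn that glucoside into the DIMBOA form. In the RefSeq gene table of the NAM-5.0 assembly, matched by symbol for 8 of 8 genes, all lie on chromosome 4 in the order Bx6, Bx3, Bx4, Bx5, Bx8, Bx1, Bx2, Bx7. There, 0 or 1 protein-coding genes separate neighbours from Bx3 to Bx2, whereas 54 lie between Bx6 and Bx3 and 294 between Bx2 and Bx7. The identifiers run in another order: Zm00001d048634, listed as Bx8, is numbered before that of Bx3, and Zm00001d048793, listed as Bx6, after that of Bx2. The RefSeq entries are not paired with these identifiers, so whether the names Bx6 and Bx8 sit on the right identifiers was not tested. The other 15 symbols of the pathway that were listed, among them those of later methyltransferases and glucosidases, were not analysed here, because 0 of them are paired with an identifier of the count tables. For the same reason 0 of 7 symbols for root genes and 0 of 9 for shoot genes could be used to check the labelled tissue.

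Library totals lay between 15585904 and 28733284 counts for the 6 genotypes of the first table, and between 15830403 and 24821387 for the other 3. Some libraries of the second table stood apart. The library labelled F7 low P 2 held all 33 genes expressed in every P024 library but in no other F7 library, with a median 0.913 times their level in P024. A set of 108 genes expressed in the other F7 libraries but not in P024 had a median 0.249 times its F7 level there, and 106 of these genes were above 1 CPM in it. Leaving F7 low P 2 aside, F7 high P 1 expressed 21 genes on which the remaining F7 libraries were silent. The P024 libraries numbered 3, at low and at high P, expressed 5 genes that were silent in the other 4 P024 libraries and lacked 7 genes that those expressed, whereas both numbers were 0 for every other pair of same-numbered libraries of a genotype. Expressed means at least 5 and silent under 0.2 CPM, which is the count over the library total on a common scale.

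Per unit of gene length, Bx7 was by far the most abundant of the 8 transcripts and Bx6 the least. Levels are in FPKM, which here is the count divided by gene length and library total. Bx7 had the highest FPKM of the 8 genes in 54 of 54 libraries, with a median of 442 FPKM and a range from 32.0 to 1205 FPKM. Its share of the summed FPKM of the 8 genes had a median of 75.7% and ran from 45.4% to 93.2%. Bx8 followed with a median share of 9.95% and a median level of 38.5 FPKM. The P450 genes Bx3, Bx4 and Bx5 lay close to each other, with median levels of 17.0, 13.9 and 18.03 FPKM over all libraries. Bx1, the first enzyme, had a median of only 4.07 FPKM but spanned 0 to 234 FPKM, and Bx2, the P450 that acts on indole, had a median of 0.394 FPKM with 0 counts in 8 of 54 libraries. Levels of the 2 tables are set side by side here and were not tested against each other, since table and genotype cannot be told apart. All genotypes were counted on the B73 build, and how far each differs from B73 in these genes was not tested.

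**Figure D1:**
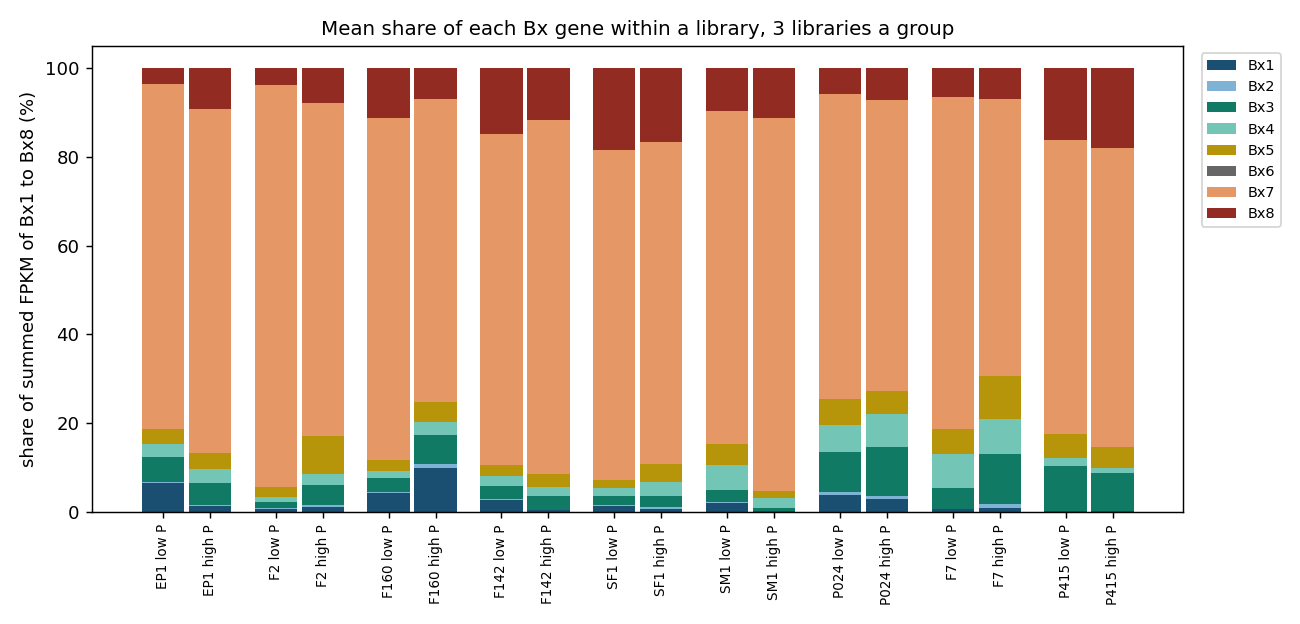
Mean share of each Bx gene in the summed FPKM of the 8 genes (vertical axis, percent), with 1 bar for each genotype and P level and 3 libraries a bar, low P left of high P. Bx7 fills most of every bar (45.4% to 93.2% in single libraries), Bx8 is usually the next, and the Bx1 band at the foot is widest in F160 at high P.

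Low P against high P gave different pictures in different genotypes. In F142 and in SM1 all 7 tested genes rose, where 25.8% and 17.3% of all tested genes rose. In EP1 3 of 7 rose (Bx1, Bx3 and Bx7) beside 21.1% of all genes, and in SF1 3 of 7 rose (Bx3, Bx7 and Bx8) beside 28.1%. In F2 and in F160 1 of 7 rose, Bx7 in both, beside 16.1% and 13.3% of all genes. In F7 4 of 7 fell (Bx1, Bx2, Bx3 and Bx7) beside 12.1% of all genes, and none rose. In P024 0 of 6 tested genes changed beside 0% of all genes, with 0 of the 6 and 269 of all genes at an unadjusted p under 0.05, and in P415 0 of 5 changed beside 0.204% of all genes, 0 of the 5 being at an unadjusted p under 0.05. DESeq2 also called 0 members in both. A gene is said to rise or fall where edgeR's quasi-likelihood F-test on the deposited counts gave a Benjamini-Hochberg adjusted p under 0.05, and each ± beside a log2 fold change is an approximate standard error. Shares of all genes are given for the reported fits and not for the alternative fits. How many of all genes had libraries fully apart between the P levels was not counted. In these bulk samples, fewer cells that express a gene and less RNA per cell cannot be told apart.

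The median log2 fold change of the tested members was 3.69 in SM1, 1.72 in F142, 1.36 in SF1 and 1.03 in EP1. It was -0.53 in F160, -0.70 in F2 and -2.32 in F7. Values of Bx1 to Bx5 were negative in each of these genotypes, those of Bx8 in F2 and F7, and that of Bx7 in F7 alone. Leaving out F2 high P replicate 1 turned the F2 values of Bx1 to Bx5 and Bx8 positive (0.74 to 1.79), and leaving out F160 high P replicate 2 turned those of Bx1, Bx3, Bx4 and Bx5 in F160 positive (0.12 to 0.39), none of which passed. P024 (0.56) and P415 (0.48) lay between these, and without both P024 libraries numbered 3 the P024 values were -0.50 for Bx3, -0.58 for Bx4 and -0.38 for Bx7. Over all tested genes the median stayed between -0.02 and 0.03 in every genotype.

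**Figure D2:**
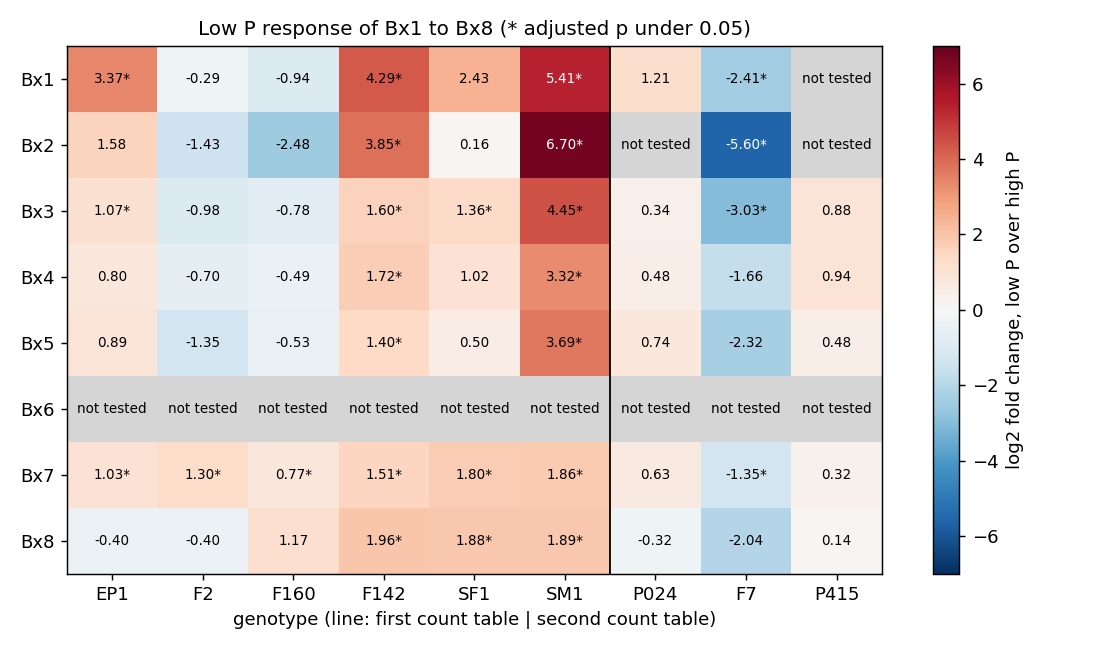
Log2 fold change of low P over high P for each Bx gene (rows) in each genotype (columns; the vertical line separates the count tables), with a star where the adjusted p was under 0.05 and grey where the gene was not tested. The F142 and SM1 columns are red with 7 stars each, the F7 column is blue with 4 stars, and the Bx7 row has stars in 6 genotypes with higher and 1 with lower values at low P.

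Bx1, which releases the indole used by the pathway, rose in EP1, F142 and SM1 and fell in F7. Values are listed in the order of the replicate numbers. In F142 Bx1 had 45.5, 20.9 and 37.9 FPKM at low P, against 3.54, 1.06 and 1.32 FPKM at high P. Every low P library lay above every high P library, and the log2 fold change was 4.29 ± 0.45 (edgeR, adjusted p = 0.000152), or 4.95 without F142 high P replicate 1. In EP1 Bx1 had 85.3, 101.2 and 114 FPKM at low P, against 12.7, 14.1 and 2.34 FPKM at high P. The EP1 groups were also apart, with tight low P libraries and 1 low library at high P, replicate 3, and the log2 fold change was 3.37 ± 0.52 (edgeR, adjusted p = 0.00123). In SM1 Bx1 had 70.7, 7.26 and 4.25 FPKM at low P, against 0.0320, 1.31 and 0.693 FPKM at high P. Here low P replicate 1 stood far above the others and high P replicate 1 held a single count; the groups did not overlap, and the log2 fold change was 5.41 ± 1.36 (edgeR, adjusted p = 0.0233, or 0.0676 without SM1 high P replicate 3). The value was 3.18 without SM1 low P replicate 1 (adjusted p = 0.0464) and 6.33 without SM1 high P replicate 2 (adjusted p = 0.0492).

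In F7 the direction of Bx1 was opposite. It had 1.11, 0.874 and 0.677 FPKM at low P, against 7.48, 4.71 and 1.997 FPKM at high P. All low P libraries lay below all high P libraries, and the log2 fold change was -2.41 ± 0.52 (edgeR, adjusted p = 0.0171). It was -2.39 (adjusted p = 0.0190) without F7 low P 2 and -1.92 (adjusted p = 0.0279) without F7 low P 2 and F7 high P 1. The adjusted p was 0.0590, 0.0666 and 0.0643 when F7 high P replicate 1, F7 high P replicate 2 or F7 low P replicate 3 alone was left out.

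In SF1 Bx1 had 7.24, 4.64 and 34.1 FPKM at low P, against 0.482, 7.10 and 1.52 FPKM at high P. High P replicate 2 overlapped the low P range, and the change of 2.43 ± 0.94 did not pass (edgeR, adjusted p = 0.0553); it was 0.0150 without SF1 high P replicate 2 and 0.0297 without SF1 low P replicate 2. F160 had the highest single Bx1 value of the study, with 62.0, 91.8 and 11.6 FPKM at low P, against 105, 234 and 2.86 FPKM at high P. Replicate 3 was the low library at both P levels, and the groups overlapped. F2 overlapped as well, with 13.8, 4.11 and 4.02 FPKM at low P, against 23.5, 3.16 and 1.14 FPKM at high P. In P415 Bx1 was close to absent, with 1, 0 and 11 counts at low P, against 5, 0 and 1 counts at high P, and was not tested. The ratio of the summed P415 counts, scaled by library totals, was 1.99 with an exact interval of 0.691 to 6.46 at 95% that covers counting error only.

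In P024 the levels of Bx1 followed the replicate number. It had 1.10, 0.0764 and 126 FPKM at low P, against 0.770, 0.425 and 54.4 FPKM at high P. Both libraries numbered 3 were high and the other 4 were low, and the P levels overlapped. The log2 fold change was 1.21 ± 2.47 (edgeR, adjusted p = 0.99997), and 0.07 (adjusted p = 0.987) without both libraries numbered 3.

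Bx2, the first of the 4 P450 genes, rose in SM1 and F142 and fell in F7, on few reads at the lower level. In SM1 Bx2 had 8.004, 1.34 and 0.379 FPKM at low P, against 0.0239, 0.0192 and 0.0517 FPKM at high P, from 1, 1 and 2 counts at high P. The SM1 groups did not overlap and Bx2 rose, with a log2 fold change of 6.70 ± 1.46 (edgeR, adjusted p = 0.0142), or 4.77 without SM1 low P replicate 1. Summed over libraries the ratio was 106 with an exact interval of 41.1 to 391.6 at 95% from counting error. In F142 Bx2 had 4.72, 1.24 and 4.83 FPKM at low P, against 0.394, 0.0790 and 0.321 FPKM at high P. Here too the P levels were apart, with a log2 fold change of 3.85 ± 0.64 (edgeR, adjusted p = 0.00165).

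In F7 Bx2 had 0.0594, 0.0620 and 0.140 FPKM at low P, against 9.10, 2.71 and 1.73 FPKM at high P. All 3 low P libraries were near the counting limit with 2, 2 and 5 counts, and Bx2 fell, with a log2 fold change of -5.60 ± 0.84 (edgeR, adjusted p = 0.00457) of -4.62 without F7 high P replicate 1, and of -4.41 (adjusted p = 0.00157) without F7 low P 2 and F7 high P 1. In EP1 Bx2 had 2.97, 5.47 and 4.14 FPKM at low P, against 0.886, 3.11 and 0.202 FPKM at high P. The EP1 libraries overlapped through high P replicate 2, and the change of 1.58 ± 0.69 did not pass (edgeR, adjusted p = 0.09997, or 0.00443 without EP1 high P replicate 2). In F160 the 6 libraries ran from 0.135 to 3.53 FPKM at low P, against 0.109 to 18.2 FPKM at high P. The change of -2.48 ± 1.35 did not pass in the fit without a replicate block (edgeR, adjusted p = 0.236) and did with it, at -2.47 (adjusted p = 0.0133).

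Bx2 had few or no reads in most libraries of the other 2 genotypes of the second table. In P024 Bx2 had 0, 0 and 799 counts at low P, against 0, 0 and 536 counts at high P, so that only the libraries numbered 3 held reads of it. In P415 it had 0, 0 and 1 counts at low P, against 0, 1 and 0 counts at high P. Bx2 was therefore at or under the limit of 3 counts over a group in P415, which equals 0.0262 FPKM at low P and 0.0263 FPKM at high P. It was tested in neither genotype.

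The later P450 genes Bx3, Bx4 and Bx5 had similar values to each other in most genotypes. In SM1 Bx3 had 47.0, 35.7 and 15.5 FPKM at low P, against 0.572, 2.43 and 1.86 FPKM at high P. Bx4 in SM1 had 91.3, 69.4 and 31.1 FPKM at low P, against 5.09, 7.47 and 8.13 FPKM at high P. Bx5 in SM1 had 85.8, 48.3 and 30.3 FPKM at low P, against 1.34, 5.42 and 7.26 FPKM at high P. For each of the 3 genes the P levels in SM1 were fully apart. The log2 fold changes were 4.45 ± 0.58 for Bx3, 3.32 ± 0.40 for Bx4 and 3.69 ± 0.62 for Bx5 (edgeR, adjusted p = 0.00230, 0.00186 and 0.00580). In F142 the same 3 genes rose by smaller amounts, with log2 fold changes of 1.60 ± 0.25 for Bx3, 1.72 ± 0.42 for Bx4 and 1.40 ± 0.35 for Bx5 (edgeR, adjusted p = 0.00119, 0.0103 and 0.0113); that of Bx4 was 2.36 without F142 high P replicate 1.

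Bx3 also rose in EP1 and SF1. In EP1 it had 79.2, 85.1 and 91.1 FPKM at low P, against 35.98, 63.4 and 21.5 FPKM at high P. The groups were apart by a narrow margin, with a log2 fold change of 1.07 ± 0.33 (edgeR, adjusted p = 0.0320). Leaving out EP1 high P replicate 1 or any 1 of the 3 EP1 low P libraries gave adjusted p of 0.0555 to 0.0824, and leaving out EP1 high P replicate 2 brought the number of EP1 members that rose to 6, with Bx2, Bx4 and Bx5 among them. In SF1 Bx3 had 15.6, 17.6 and 37.5 FPKM at low P, against 6.95, 16.9 and 6.03 FPKM at high P. The ranges met, since high P replicate 2 lay above low P replicate 1, and the log2 fold change was 1.36 ± 0.44 (edgeR, adjusted p = 0.0290, and 0.0806, 0.0910 and 0.123 without SF1 high P replicate 1, SF1 high P replicate 3 or SF1 low P replicate 3). Leaving out SF1 high P replicate 2 brought the SF1 members that rose to 5, with Bx1 and Bx4 added, and the Bx3 value to 1.96. The shares of all genes that rose in these EP1 and SF1 fits are not given, so the counts cannot be weighed against them.

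In F7 Bx3 had 11.5, 4.12 and 7.48 FPKM at low P, against 113, 53.4 and 24.6 FPKM at high P. It fell with no overlap, with a log2 fold change of -3.03 ± 0.61 (edgeR, adjusted p = 0.0130), of -2.38 without F7 high P replicate 1, and of -2.05 (adjusted p = 0.00567) without F7 low P 2 and F7 high P 1. Bx5 in F7 had 20.3, 2.04 and 9.51 FPKM at low P, against 89.7, 49.1 and 20.7 FPKM at high P. The Bx5 groups came within 1 FPKM of each other, and the change of -2.32 ± 0.82 did not pass (edgeR, adjusted p = 0.0834, or 0.0483 without F7 low P 2), whereas DESeq2 called it (adjusted p = 0.00889). It was -1.25 without F7 low P 2 and F7 high P 1 (adjusted p = 0.0700). Bx4 in F7 had 23.8, 2.95 and 14.3 FPKM at low P, against 75.2, 38.1 and 17.6 FPKM at high P. Bx4 overlapped through low P replicate 1, with a change of -1.66 ± 0.76 (edgeR, adjusted p = 0.165), of -1.19 without F7 low P 2 and of -0.57 without F7 low P 2 and F7 high P 1. In F2 and F160 the 3 genes had log2 fold changes from -1.35 to -0.49 with overlapping groups, none of which passed, and their signs turned without the single libraries named above.

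**Figure D3:**
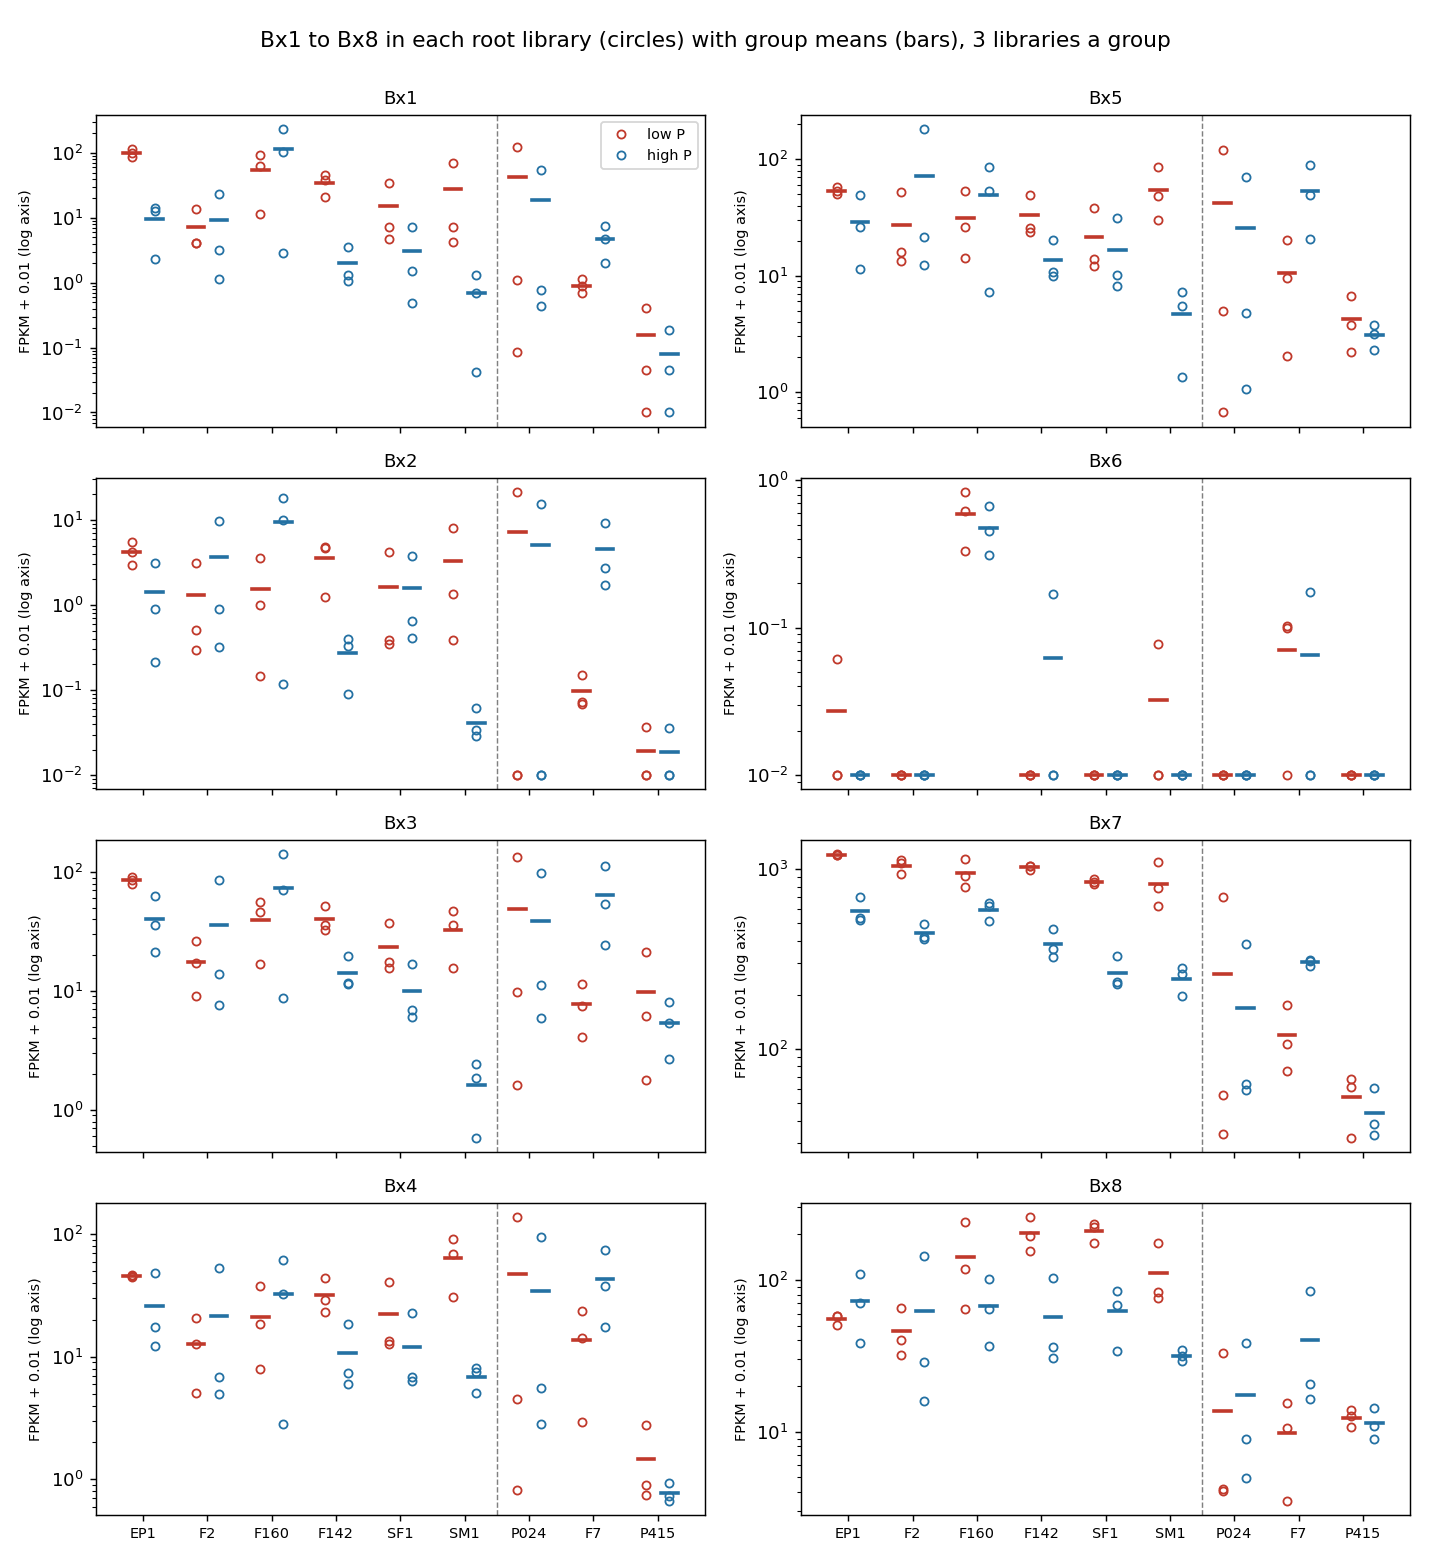
FPKM of each Bx gene in each of the 54 libraries (circles, logarithmic axis, 0.01 added so that zeros show) with group means (bars), by genotype, low P left of high P; the dashed line separates the count tables. Low P and high P circles separate completely for Bx7 in 7 genotypes, and the P024 circles of replicate 3 stand far above the rest of P024 for Bx1 to Bx5, Bx7 and Bx8. The share of all genes that separate so was not counted.

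Bx7, the O-methyltransferase, gave the most regular response of the members, with low P libraries above all high P libraries in 6 genotypes and below them in F7. The share of all genes that separate so was not counted in any genotype. In EP1 Bx7 had 1205, 1199 and 1197 FPKM at low P, against 523, 700 and 534 FPKM at high P. In SF1 it had 882, 821 and 846 FPKM at low P, against 236, 328 and 229 FPKM at high P. In SM1 it had 1090, 781 and 623 FPKM at low P, against 197, 262 and 281 FPKM at high P. The low P libraries of EP1 and SF1 agreed closely, while SM1 was more spread and still apart. The log2 fold changes were 1.03 ± 0.14 in EP1, 1.80 ± 0.14 in SF1 and 1.86 ± 0.25 in SM1 (edgeR, adjusted p = 0.000747, 2.33e-05 and 0.00282).

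In F2 Bx7 had 1116, 1084 and 940 FPKM at low P, against 496, 420 and 406 FPKM at high P. In F142 it had 987, 1040 and 1035 FPKM at low P, against 326, 361 and 465 FPKM at high P. In F160 it had 1143, 790 and 911 FPKM at low P, against 620, 648 and 511 FPKM at high P. Low P was thus the higher level in all 3 of these genotypes, although in F2 and F160 the fitted values of Bx1 to Bx5 were negative, signs that in F2 turned without F2 high P replicate 1 and in F160, all but that of Bx2, without F160 high P replicate 2. The log2 fold changes were 1.30 ± 0.15 in F2, 1.51 ± 0.15 in F142 and 0.77 ± 0.16 in F160 (edgeR, adjusted p = 0.00136, 0.000110 and 0.0131).

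In F7 Bx7 had 176, 75.7 and 106 FPKM at low P, against 314, 309 and 289 FPKM at high P. The high P libraries agreed within a narrow band and all low P libraries lay below it, with a log2 fold change of -1.35 ± 0.32 (edgeR, adjusted p = 0.0236). Without F7 low P 2 it was -1.11 (adjusted p = 0.0127). Leaving out any 1 of the 3 F7 high P libraries or F7 low P replicate 3 gave adjusted p of 0.0671 to 0.0866. With F7 high P replicate 1, F7 high P replicate 2 or F7 low P replicate 3 left out, 2 of 7 members fell, Bx2 and Bx3. The shares of all genes that fell in those fits are not given. In P024 Bx7 had 55.2, 33.9 and 696 FPKM at low P, against 63.7, 59.2 and 384 FPKM at high P. Again the libraries numbered 3 stood apart, and the other 4 lay within the range of P415, where Bx7 had 68.5, 32.0 and 61.6 FPKM at low P, against 38.2, 33.2 and 60.4 FPKM at high P.

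The gene listed as Bx8, one of the glucosyltransferases of the pathway if the listed name holds, rose in F142, SF1 and SM1. In F142 Bx8 had 195, 259 and 155 FPKM at low P, against 103, 30.7 and 36.2 FPKM at high P. In SF1 it had 174, 233 and 223 FPKM at low P, against 34.0, 83.9 and 68.1 FPKM at high P. In SM1 it had 174, 82.7 and 76.1 FPKM at low P, against 34.5, 31.5 and 29.2 FPKM at high P. The P levels did not overlap in any of these 3 genotypes, with log2 fold changes of 1.96 ± 0.45, 1.88 ± 0.29 and 1.89 ± 0.34 (edgeR, adjusted p = 0.00783, 0.000810 and 0.00733). The F142 value was 2.70 without F142 high P replicate 1. EP1 differed from them, with 57.9, 57.8 and 50.1 FPKM at low P, against 70.2, 109 and 38.5 FPKM at high P. Its low P libraries lay inside the high P range, and the change of -0.40 ± 0.32 did not pass (edgeR, adjusted p = 0.341). Without EP1 high P replicate 3 it was -0.70 and passed (adjusted p = 0.0307), and without EP1 high P replicate 2 it was 0.057.

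In F160 Bx8 had 117.2, 241 and 64.3 FPKM at low P, against 64.8, 101.0 and 36.7 FPKM at high P. In both conditions replicate 2 was highest and replicate 3 lowest, and each low P library stood above the high P library of its number. The change of 1.17 ± 0.53 did not pass without a replicate block (edgeR, adjusted p = 0.158) and passed with it, at 1.07 (adjusted p = 0.00376). With the block, 3 of 7 members changed in F160, Bx2 lower and Bx7 and Bx8 higher. The share of all genes called with the block is not given, so this count cannot be weighed against it. In F7 Bx8 had 15.6, 10.5 and 3.51 FPKM at low P, against 84.0, 20.5 and 16.4 FPKM at high P. The F7 libraries were apart by under 1 FPKM, and the change of -2.04 ± 0.74 did not pass (edgeR, adjusted p = 0.0893). DESeq2 (adjusted p = 0.0143) and the joint edgeR model of 54 libraries (adjusted p = 0.0253) called it. It was -0.96 without F7 high P replicate 1 and -0.997 with F7 low P 2 also left out, and passed in neither.

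The gene listed as Bx6, the dioxygenase that acts on the glucoside if the listed name holds, was hardly read at all. It had 0 counts in 42 of 54 libraries and at most 13 counts in any, and did not pass the filter on low counts. F160 was the only genotype with counts of Bx6 in every library, with 5, 13 and 9 counts at low P, against 4, 5 and 8 counts at high P. These overlapping values equal 0.321, 0.826 and 0.608 FPKM at low P, against 0.299, 0.444 and 0.657 FPKM at high P. The other 8 genotypes had at most 2 counts in a library. The groups whose 3 libraries all had 0 counts allow levels of up to 0.0651 to 0.0861 FPKM, taking 3 counts over the group as the limit, which covers counting error only. The deposited length of this gene was 678 bases, the shortest of the 8, against 1423 to 2037 bases for the others. The RefSeq gene matched by the symbol Bx6 spans 1508 bases, and whether it is the same gene was not tested.

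Averaged over the 9 genotypes in 1 model of all 54 libraries, Bx1 and Bx7 rose, 2 of 7 tested members beside 20.2% of all genes. The average log2 fold change of Bx1 was 1.57 ± 0.61 and that of Bx7 was 0.88 ± 0.18 (edgeR, adjusted p = 0.0361 and 8.80e-05). The median over the 7 members was 0.56, beside -0.000672 over all genes. Both averages rested on the first count table. In it alone 5 members rose, namely Bx1, Bx3, Bx4, Bx7 and Bx8, whereas in the second table alone 0 changed, and the values were -0.065 for Bx1 and -0.13 for Bx7 (edgeR, adjusted p = 0.9999 and 0.973). The share of all genes called in either of these fits is not given, so the counts 5 and 0 cannot be weighed against it. The average for Bx1 also did not pass without the libraries numbered 1 (adjusted p = 0.0957) or 3 (adjusted p = 0.626).

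The response to low P differed among the 9 genotypes for 5 of 7 members, beside 42.3% of all genes. These were Bx1, Bx2, Bx3, Bx7 and Bx8 (edgeR interaction test, adjusted p = 0.0451, 0.0281, 0.00822, 0.0181 and 0.00926). Bx4 and Bx5 did not pass, with adjusted p of 0.221 and 0.102. Both passed without the P024 libraries numbered 3 (edgeR, adjusted p = 0.0224 and 0.00908) and in the first table alone (0.0472 and 0.0180), where 7 of 7 members then passed, and DESeq2 called Bx5 (adjusted p = 0.0256). Without F7 low P 2 the members that passed were Bx2, Bx3 and Bx8, without F7 low P 2 and F7 high P 1 they were Bx3 and Bx8, and without all libraries numbered 1 or all numbered 2 there were 0. The shares of all genes that passed in these alternative fits are not given. The joint model has 1 spread for all genotypes, although members varied far more in P024 than elsewhere.

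When each genotype was compared with the mean of its 8 counterparts, F7 and SM1 were the 2 with members called. In F7 4 members had a lower response, beside 16.1% of all genes. The differences in log2 fold change were -4.49 ± 1.77 for Bx1, -4.03 ± 1.12 for Bx3, -2.52 ± 0.59 for Bx7 and -2.79 ± 0.78 for Bx8 (edgeR, adjusted p = 0.0470, 0.00480, 0.000867 and 0.00477). In SM1 Bx3 had a higher response, beside 3.45% of all genes, with a difference of 4.39 ± 1.16 (edgeR, adjusted p = 0.0160). Without F7 low P 2, Bx1 was no longer called in F7 (adjusted p = 0.102), and without F7 low P 2 and F7 high P 1, Bx7 alone was called. Bx1 was also not called with total-count scaling (adjusted p = 0.0556), with no filter on low counts (0.0575) or without the libraries of any 1 replicate number (0.107 to 0.189). The SM1 count was 0 without the libraries numbered 1 or 2 and 5 without both P024 libraries numbered 3. What share of all genes passed in these alternative fits is not given. In EP1, F2, F160, F142, SF1, P024 and P415 0 members were called, beside 5.09%, 4.86%, 0.899%, 5.30%, 6.39%, 4.88% and 2.39% of all genes in either direction; edgeR's unadjusted p was under 0.05 for 1 member each in F142 and SF1 and for 0 in the other 5, and DESeq2 called 0 in these 7 genotypes.

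Genotypes of the first table differed in the levels of fewer members at low P than at high P. At low P 1 of 7 members differed among the 6 genotypes, Bx8, beside 80.7% of all genes, whereas at high P 5 of 7 differed (Bx1, Bx2, Bx3, Bx5 and Bx7), beside 89.2%. For Bx7 at low P all 6 genotypes lay between 831 FPKM in SM1 and 1200 FPKM in EP1, and no neighbours differed. Of the 15 pairs 2 differed for Bx7 at low P, EP1 being higher than SF1 by 0.46 ± 0.17 and than SM1 by 0.43 ± 0.17 on the log2 scale (edgeR, adjusted p = 0.0327 and 0.0411, beside 46.1% and 53.5% of all genes). The overall test of Bx7 at low P did not pass (edgeR, adjusted p = 0.111). Nor did those of Bx1, Bx3 and Bx4, which also had called pairs. EP1 was above F2 for Bx1 and Bx3 (edgeR, adjusted p = 0.0147 and 0.0191, beside 41.9%). It was above SF1 for Bx3 (0.0466, beside 46.1%), and SM1 was above F2 for Bx4 (0.0259, beside 45.2%). At high P Bx7 averaged 593 ± 72.2 FPKM in F160, 585 ± 99.2 in EP1, 441 ± 48.4 in F2, 384 ± 72.02 in F142, 265 ± 55.4 in SF1 and 246 ± 44.1 in SM1 (SD, n = 3 each). In that order only F142 and SF1 differed as neighbours (edgeR, adjusted p = 0.0111, beside 36.6% of all genes in that pair). For Bx1 at high P, EP1 (9.71 ± 6.42 FPKM) lay below F160 (114 ± 116 FPKM), the highest genotype and its neighbour in the order, with a log2 difference of -3.52 ± 1.201 for EP1 over F160 (edgeR, adjusted p = 0.0179, beside 45.5% of all genes in that pair). These groups overlapped, since F160 replicate 3 had 2.86 FPKM, below EP1 replicates 1 and 2 (12.7 and 14.1 FPKM). Pairs of genotypes were tested in the reported fit only, with no library left out. The order went on with F2, SF1, F142 and SM1, and none of these neighbours differed. For Bx3 at high P, SF1 (9.97 ± 6.03 FPKM) differed from SM1 (1.62 ± 0.951 FPKM), the lowest genotype, by 2.55 ± 0.85 on the log2 scale (edgeR, adjusted p = 0.0162, beside 43.1% of all genes), and no other neighbours differed.

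For Bx8 the order of the first table depended on the P level. At low P SF1 (210 ± 31.7 FPKM), F142 (203 ± 52.4), F160 (141 ± 90.9) and SM1 (111 ± 54.8) stood above EP1 (55.3 ± 4.46) and F2 (45.8 ± 17.1), and at high P the 6 means lay between 31.7 and 72.6 FPKM. No neighbours differed at either level, but 5 of 15 pairs did at low P, all with EP1 or F2 as the lower genotype, and 0 did at high P. In single pairs of the first table, 11.7% to 53.5% of all genes differed at low P and 34.5% to 57.8% at high P. Of 15 first-table pairs at high P, SM1 was the lower genotype in all 5 of its pairs for Bx3. The overall test of Bx8 at low P did not pass without the libraries numbered 2 (adjusted p = 0.0893).

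Among the 3 genotypes of the second table, 2 of 7 members differed at low P, Bx1 and Bx2, beside 18.8% of all genes, and 1 of 7 at high P, Bx4, beside 28.6%. At high P Bx4 averaged 43.6 ± 29.2 FPKM in F7, 34.6 ± 52.7 in P024 and 0.770 ± 0.140 in P415 (SD, n = 3 each). F7 differed from P415 for Bx4 and Bx7 at high P, by 5.80 ± 1.69 and 2.79 ± 0.90 on the log2 scale (edgeR, adjusted p = 0.0233 and 0.0379, beside 22.2% of all genes), and no other pair of this table differed for any member. These counts turned on single libraries and on scaling. Bx2 at low P did not pass without F7 low P 2 (adjusted p = 0.0585) or with total-count scaling (0.0517), and Bx4 at high P did not pass without F7 low P 2 and F7 high P 1 (0.0706) or with total-count scaling (0.0528). Without both P024 libraries numbered 3, Bx4 and Bx7 passed at low P (edgeR, adjusted p = 0.0156 and 0.0242) while Bx1 and Bx2 did not (adjusted p = 0.163 and 0.0745), and at high P 7 of 7 members differed. The share of all genes in that fit is not given, so the 7 of 7 cannot be weighed against it.

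Within groups the early genes varied from library to library far more than most genes. The within-group SD on the log2 CPM scale was 2.29 for Bx2, 2.08 for Bx1, 1.51 for Bx5, 1.48 for Bx4 and 1.31 for Bx3. The genes listed as Bx8 and Bx7 were steadier, with 0.88 for Bx8 and 0.66 for Bx7, and the median over 29705 genes was 0.43. In P024 the SD reached 4.94 for Bx2 and 4.28 for Bx1, beside a median of 0.60 over all genes there. In F160 these 2 genes also varied widely, at 3.03 and 2.62, while Bx7 had an SD of 0.20 and the median gene one of 0.22.

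These swings went together. The library with the highest Bx1 in its group was also the highest for Bx3 in 18 of 18 groups, for Bx5 in 16, for Bx4 in 15, and for Bx2 and Bx8 in 13 each. For Bx7 it was so in 9 of 18 groups, and the median over 22780 genes was 6 of 18. The full order of the 3 replicates matched that of Bx1 in 13 groups for Bx3, 12 for Bx4, 10 each for Bx5 and Bx8, 8 for Bx2 and 6 for Bx7, beside a median of 3. Libraries share their RNA, depth and preparation across genes, so these counts describe the libraries and carry no test. Other properties of the high libraries were not tested.

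**Figure D4:**
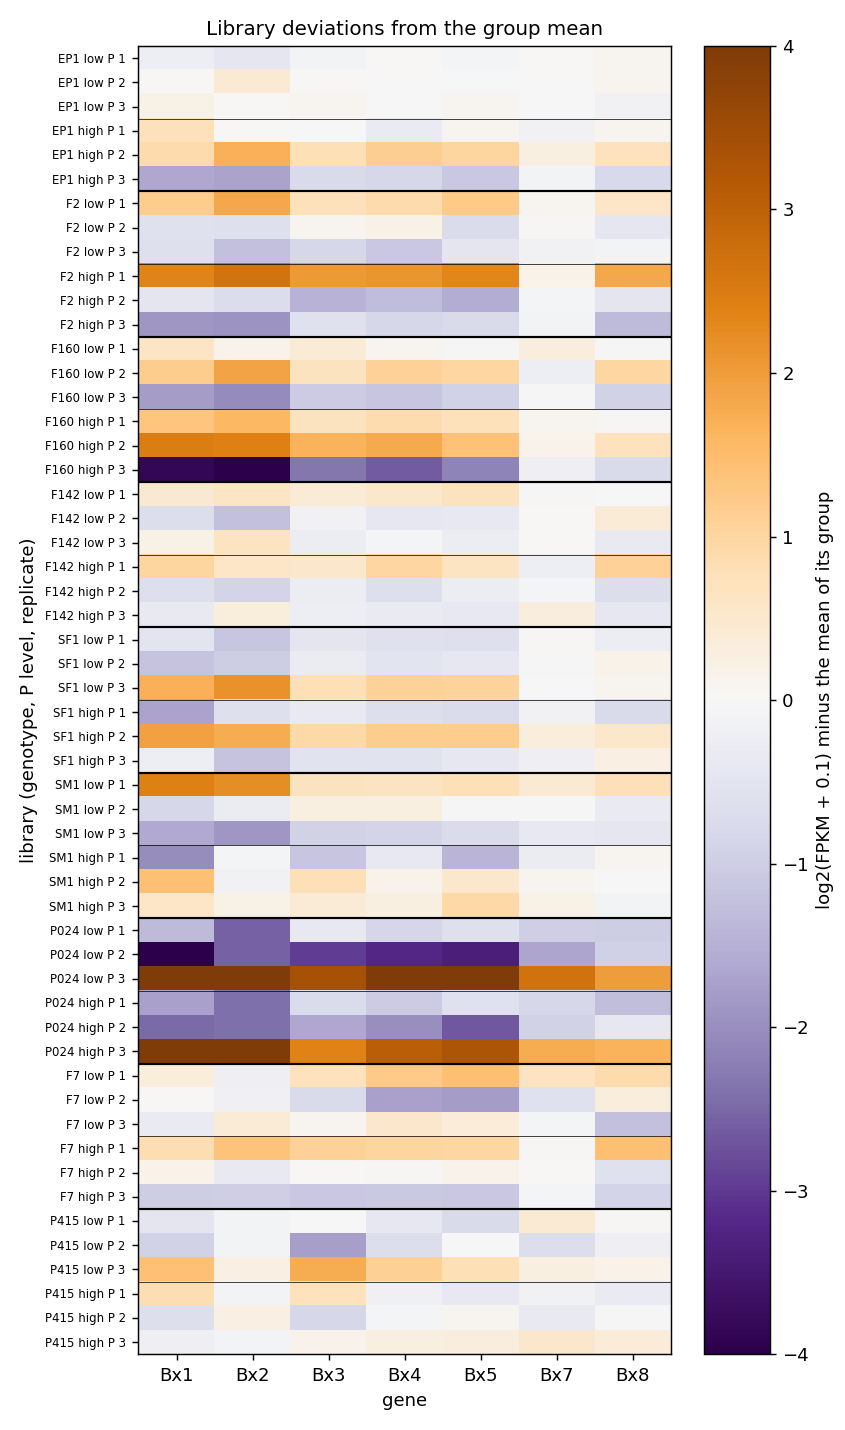
Deviation of each library from the mean of its group on the log2(FPKM + 0.1) scale (colour, ending at 4 in either direction) for 7 Bx genes (columns) in the 54 libraries (rows, by genotype, low P above high P). Rows take 1 colour from Bx1 to Bx5 in most libraries, as in both P024 libraries numbered 3 (orange) and F160 high P 3 (purple), while the Bx7 column is pale outside P024.

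Ratios of neighbouring genes set some genotypes apart. Bx3 over Bx4 was 0.515, 0.515 and 0.498 in SM1 at low P, against 0.112, 0.325 and 0.229 at high P. SM1 was below all libraries of EP1, F2, F160, F142 and SF1 in this ratio, which ran from 0.745 to 3.10 there. In P415 Bx3 over Bx4 was 6.93, 2.396 and 7.70 at low P, against 12.2, 3.73 and 5.82 at high P. In F7 it was 0.483, 1.40 and 0.523 at low P, against 1.499, 1.40 and 1.40 at high P. The library F7 low P 2, which held transcripts of P024 genes, thus fell with the F7 high P libraries, and the other 2 F7 low P libraries lay at the level of SM1 at low P. The ratio in F7 low P 2 also lay between those of these 2 libraries and those of the P024 libraries numbered 1 and 2. The part of the P024 transcripts in it was not tested. In P024 the ratio was 2.21, 1.99 and 0.970 at low P, against 2.02, 2.11 and 1.03 at high P, and the libraries numbered 3 were again apart at both P levels. These ratios are descriptions of FPKM values counted on the B73 build, and neither they nor the part of sequence differences from B73 in them were tested.

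Across the 18 group means the members followed each other to different degrees. On the log2 CPM scale, Pearson's r with the mean of the z-scored patterns of the other 7 members was 0.94 for Bx1, 0.92 for Bx5, 0.91 for Bx2, 0.87 for Bx7, 0.83 for Bx4, 0.80 for Bx3, 0.69 for Bx8 and 0.31 for Bx6. Among 22774 genes ordered by this r, Bx1 ranked 1, Bx5 4, Bx2 5, Bx7 13, Bx4 107, Bx3 329, Bx8 827 and Bx6 7304. Bx2 and Bx5 were the closest pair with r of 0.95, and Bx3 and Bx8 were far less alike at 0.46. The points share libraries and the same 9 genotypes at 2 P levels, so r is given as a description with no p.

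Leaving out the 8 members, the 2 genes whose group means were most like the members' were Zm00001d011669 (r of 0.92 over 18 group means) and Zm00001d016736 (r of 0.92), and the 2 most opposite were Zm00001d010974 (r of -0.92) and Zm00001d020532 (r of -0.91). The files give no names for these identifiers. Zm00001d011669 averaged 15.0 ± 7.03 FPKM at low P, against 4.69 ± 1.92 FPKM at high P, in SM1, and 4.71 ± 3.16 FPKM at low P, against 15.0 ± 0.386 FPKM at high P, in F7 (SD, n = 3 each). Its P levels therefore lay in opposite order in SM1 and F7, and in P415 it was low at both, with 0.802 ± 0.307 FPKM at low P and 1.34 ± 1.03 FPKM at high P. Zm00001d020532 ran the other way, with 9.29 ± 2.20 FPKM at low P against 17.8 ± 2.53 FPKM at high P in SM1, and 12.1 ± 2.39 FPKM at low P against 6.53 ± 0.282 FPKM at high P in F7. Both genes were picked by their correlation with the members over these same group means, so their orders give no separate support.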

How the data were processed

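Roots of 9 maize genotypes at 2 P levels were profiled by RNA sequencing of NEBNext Ultra libraries made from column-purified RNA, per the labels' protocols. The submitters' processing notes name fastp, HISAT2, HTSeq and the build B73 RefGen_v4 without versions, and the strand setting is not stated. How reads of overlapping or near-identical genes, such as the P450 members, were assigned, shared or lost was not tested. The authors deposited raw counts per gene, which were used in every test, and FPKM values, which equalled count over gene length and library total in 1583165 of 1583165 values above 0 (relative tolerance 0.001) and were used for levels only.

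Counts were analysed with edgeR 4.0.16 and limma 3.58.1 (R 4.3.3): TMM scaling, filterByExpr, quasi-likelihood F-tests and Benjamini-Hochberg adjustment over all tested genes, threshold 0.05. Fits were made per genotype (6 libraries), over all 54 libraries (average, interaction, each genotype against the other 8) and per count table (levels). The ± of a log2 fold change is its size over the square root of F. Exact permutation of 3 against 3 libraries would give a single gene a p of at least 0.1. The procedure was tested on simulated counts. Alternatives were RLE and total-count scaling, no low-count filter, DESeq2 1.42.0, a replicate block, leaving out libraries and each count table alone; leaving out both P024 libraries numbered 3 was chosen after seeing the data. TPM from FPKM moved 0 of 63 group comparisons.

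Replicate numbers were taken to pair low P and high P libraries where every same-numbered pair correlated above 0.1 in its deviations from the group means: this held in F160 (0.124 to 0.248), P024 (0.462 to 0.815) and P415 (0.161 to 0.359), and rests on the data alone. All 8 members are named. The other genes named are those with the highest and lowest Pearson correlation with the members' mean pattern over 18 group means (log2 CPM, prior count 2, mean log2 CPM of at least 0), leaving out the members. The members and lists were chosen with earlier results of these data known. No sequences were printed, since none were used here.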

Additional observations from a re-analysis of the deposited data

Results flagged for a closer look

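For 5 members the response to low P differed among the 9 genotypes by the interaction test of the joint edgeR model: Bx1 (adjusted p = 0.0451), Bx2 (adjusted p = 0.0281), Bx3 (adjusted p = 0.00822), Bx7 (adjusted p = 0.0181) and Bx8 (adjusted p = 0.00926). In F7 the response was lower than the mean of the other 8 genotypes for Bx1 (adjusted p = 0.0470), Bx3 (adjusted p = 0.00480), Bx7 (adjusted p = 0.000867) and Bx8 (adjusted p = 0.00477), by the same model. In SM1 the response of Bx3 was higher than that mean (adjusted p = 0.0160). F7 is the genotype that holds the library with transcripts of P024 genes, F7 low P 2; its part in the interaction was not tested beyond the fits without it. In those fits Bx1 did not pass the interaction test without F7 low P 2 (adjusted p = 0.0679), nor did Bx7 (adjusted p = 0.0665). Bx1 in F7 against the other 8 genotypes was also not called without F7 low P 2 (adjusted p = 0.102), without the libraries of any 1 replicate number (adjusted p = 0.107 to 0.189), with total-count scaling or with no filter. Bx4 and Bx5 passed the interaction test as well without both P024 libraries numbered 3.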

How the results depend on the processing

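Of 270 recomputed counts of members called, 215 kept within 1.5 times the reported count, and of 1849 recomputed single-gene tests 1677 kept their side of the threshold. Direction was checked only for tests of a fold change that passed in the reported fit, so turned signs of other tests are among the 1677. Shares of all genes are not given for these alternative fits. Within genotypes, the joint model of 54 libraries called 0 members in EP1, F2 and F160 and 3 in F142 (Bx1, Bx7 and Bx8). With 1 library left out, the count ran from 2 to 6 in EP1, from 2 to 5 in SF1 and from 2 to 5 in F7, and it was 6 or 7 in SM1 and 7 throughout in F142. The average response had 5 members called in the first count table alone, 0 in the second, where the values of Bx1 and Bx7 turned to -0.065 and -0.13, and 1 or 2 without 1 replicate number. The interaction had 3 members with total-count scaling or without F7 low P 2, 2 without F7 low P 2 and F7 high P 1, 0 in the second table alone, and 0 to 5 without 1 replicate number; it had 7 without both P024 libraries numbered 3 or in the first table alone, 6 with DESeq2 and 4 with no filter. Against the other 8 genotypes, DESeq2 called 5 members in SM1, leaving out both P024 libraries numbered 3 gave 5 in SM1 and 1 each in F142, SF1 and P024, leaving out F7 low P 2 and F7 high P 1 gave 1 in F7, and leaving out 1 replicate number gave 0 to 5 in SM1, 0 or 1 in P024 and 2 or 3 in F7. For levels at low P in the first table, total-count scaling or no filter gave 2 members and leaving out a number 0 to 3. For levels in the second table at low P, total-count scaling gave 1, leaving out F7 low P 2, alone or with F7 high P 1, gave 1, and leaving out a number 0; at high P, total-count scaling gave 0, leaving out F7 low P 2 and F7 high P 1 gave 0, leaving out the P024 libraries numbered 3 gave 7, and leaving out a number 0 to 7. The cause of these changes was not tested.

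The replicate block gave 3 members in F160, where the numbers pair by correlation, and changed no call in P024 or P415. In the fits below the libraries share only a number in most genotypes: the replicate block gave 5 members for the average, 1 in F142, 2 in SF1, 6 in SM1 and 7 in F7 against the other 8, 3 for levels at low P in the first table, and 0 at low P and 4 at high P in the second. In the interaction it gave 7, with Bx4 and Bx5 added (adjusted p = 0.00855 and 0.00237). Within genotypes the block gave Bx1 in SM1 an adjusted p of 0.0879, and it called Bx2 in EP1 (0.0391) and Bx8 in F7 (0.0205). The correlation of same-numbered libraries was at or under 0.1 for at least 1 number in EP1, F2, F142, SF1, SM1 and F7; every low P library correlated best with its own number in F2 and F160. Depth limits Bx6, Bx2 and, in P415, Bx1, which have too few counts for their P levels to be compared in some or all genotypes.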
